A study of Mus musculus with 6 samples.

Results

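Small RNA genes and the transcripts that host them were examined in the RNA-seq comparison of control and H19 knockdown mouse myotubes. A feature, which is 1 locus of the authors' transcript assembly and may join several genes, was taken when 1 or more of its gene symbols named a small nucleolar RNA (snoRNA), a microRNA, an RNase P RNA, another small structural RNA or a host transcript of these. This rule selected 18 of the 3019 features listed, which together carried 24 small RNA symbols. Of the 18 features, 11 also carried a protein-coding symbol, 3 were long non-coding host transcripts, 2 were RNase P RNAs, and 2 carried a microRNA symbol and no other. No symbol in the list began with Snhg, Scarna, Mirlet, Rny, Rn7s, Rmrp, Rnu, Terc, Vaultrc or Gas5.

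The cells were C3H, a mouse myoblast line, in which a switch to low-serum medium induced fusion into multinucleated myotubes. They received either a control small interfering RNA (siCon) or one directed against H19 (siH19) after 40 h of differentiation, and RNA was taken 48 h after transfection, with 3 libraries in each group. Both groups therefore went through differentiation and transfection and by design differed in the siRNA alone. Stranded libraries were made from total RNA after removal of rRNA, with no enrichment of poly(A) RNA, and were read in 76-base cycles from both ends. The authors deposited 1 level for each group and feature in log2 FPKM (fragments mapped to a transcript, divided by its length and by the size of the library, on a log2 scale), estimated over its 3 libraries together. A value per library was not analysed here, so the spread between replicates and the depth are unknown, no test was possible, and no precision is given for any value. Every feature listed had been called by the authors, and the smallest difference in the list was 0.31 on the log2 scale, so features that differed less were not analysed here. Below, a difference is the siH19 level minus the siCon level on the log2 scale, and in bulk RNA of this kind a change in the share of cells cannot be told apart from a change in RNA per cell.

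Most snoRNAs of mammals are cut from introns of a longer host transcript, whose exons may encode a protein or may be spliced into a non-coding RNA that is degraded quickly. A microRNA is cut as a hairpin from a long primary transcript, exported, and trimmed to a mature strand that pairs with messenger RNAs through its seed, the stretch near its start. RNase P RNA is different, because it is transcribed on its own by RNA polymerase III and is the catalytic part of the enzyme that removes the leader of precursor tRNAs. Muscle cells are known for a set of microRNAs, among them miR-1, miR-133 and miR-206, whose primary transcripts are induced as myoblasts differentiate, whereas the miR-17-92 cluster is known for its activity in dividing cells.

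The microRNA sequences on which the results turn were read from RefSeq, and the snoRNA sequences from GENCODE. Both were placed on mm10, the mouse assembly GRCm38. Of the 19 microRNA symbols carried by the features, 18 had an entry, with 25 mature sequences of 20 to 24 nt and 23 distinct seeds. The mature RNAs are shorter than the sequencing cycles, so the level of a feature is that of the transcript over its locus and not of the mature microRNA. The host transcript of the miR-17-92 cluster, Mir17hg, was the feature with the largest decrease among the 18 selected. Its main mature strands are shown first, with the seed (bases 2 to 8) in capitals.
mmu-miR-17-5p: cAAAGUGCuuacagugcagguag
mmu-miR-20a-5p: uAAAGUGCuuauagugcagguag
mmu-miR-18a-5p: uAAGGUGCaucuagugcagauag
mmu-miR-19a-3p: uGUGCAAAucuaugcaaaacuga
mmu-miR-19b-3p: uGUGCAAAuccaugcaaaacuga
mmu-miR-92a-3p: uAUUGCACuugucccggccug
miR-17-5p and miR-20a-5p share the seed AAAGUGC, and miR-19a-3p and miR-19b-3p share GUGCAAA. The 6 strands lie on the plus strand between chr14:115043684 (the first base of miR-17-5p) and chr14:115044496 (the last base of miR-92a-3p).

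The muscle microRNAs of 2 further loci are shown because their host features were both higher in siH19, again with the seed in capitals.
mmu-miR-1a-1-5p: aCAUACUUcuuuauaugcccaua
mmu-miR-133b-3p: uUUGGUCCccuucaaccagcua
mmu-miR-206-3p: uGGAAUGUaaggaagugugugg
miR-1a-1-5p lies at chr2:180389057-180389079, miR-133b-3p at chr1:20682834-20682855 and miR-206-3p at chr1:20679055-20679076, all on the plus strand. miR-1a-3p and the mature strands of miR-133a are not shown here.

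In 2 further features the mature microRNA ended exactly at the last base of an intron of its host, and these 2 are shown for that position, with the seed in capitals.
mmu-miR-3572-3p: uACACUUGuccuucuuuccccag
mmu-miR-1966-3p: uUUCUGACucaacucucccuuag
miR-3572-3p occupies chr7:3656010-3656032, at the end of an 80 bp intron of Cnot3, and miR-1966-3p occupies chr8:105615521-105615543, at the end of a 92 bp intron of Ripor1, which the list calls Fam65a. Both strands are plus. Of 26 mature microRNAs with a host gene on the same strand in the 18 loci, these were the 2 that ended in this way.

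The feature with the largest increase among the 18 hosts a family of C/D box snoRNAs, a class that guides 2′-O-methylation of rRNA. Its 3 members are shown with the longest stretch common to all of them, 16 bases, in capitals.
Snord1a: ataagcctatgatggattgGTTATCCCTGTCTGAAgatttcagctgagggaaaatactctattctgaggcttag
Snord1b: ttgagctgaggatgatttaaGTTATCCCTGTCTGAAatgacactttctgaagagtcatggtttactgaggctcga
Snord1c: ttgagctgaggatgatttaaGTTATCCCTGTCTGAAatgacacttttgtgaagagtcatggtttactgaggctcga
They lie on the plus strand at chr11:116674598-116674671, chr11:116674148-116674222 and chr11:116672506-116672581. Snord1b and Snord1c were 98.7% identical over 75 aligned bases, whereas Snord1a and Snord1b were 69.0% identical over 71.

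The Rpl13a feature carried a snoRNA symbol and a microRNA symbol, and a single stretch of DNA accounts for both. Snord33 (chr7:45126864-45126947, minus strand) is shown with the mature miR-5121 in capitals, which matched bases 3 to 23 of the snoRNA.
Snord33: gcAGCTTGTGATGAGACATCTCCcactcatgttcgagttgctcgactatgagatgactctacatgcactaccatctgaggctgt
The annotated Mir5121 hairpin (chr7:45126918-45126991) therefore overlaps the snoRNA gene on the same strand, and a read over the shared bases counts for either.

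H19, the siRNA target, was read first as a check of the labels. Its level was 11.20 log2 FPKM in siCon and 7.50 in siH19, a difference of -3.70 (13.0-fold lower). The H19 locus (chr7:142575490-142578146) also contains the microRNA gene Mir675, but its symbol in the list is H19 alone, so it was not among the 18 features. Of 20 symbols of myotube markers, 15 were listed, in 11 features with levels of 2.64 to 11.81 log2 FPKM in siCon and 4.13 to 12.61 in siH19. The 20 include both Mymk and its earlier symbol Tmem8c, and the gene was listed under the latter. These 11 features were all higher in siH19, with a median difference of 0.74 against 0.45 for the list, and 7 of them by at least 1.5-fold, beside 62.8% of the list higher and 37.4% higher by at least 1.5-fold, although Tnnc2 changed sign when the median shift of the list given below was subtracted. Myog, the transcription factor of terminal myogenic differentiation, had 7.79 log2 FPKM in siCon and 9.22 in siH19. Of 5 markers of undifferentiated or cycling myoblasts, Myf5 was listed (3.41 in siCon and 3.03 in siH19), and Pax7, Mki67, Top2a and Ccnb1 were not. None of the markers of fibroblasts, endothelium, leukocytes or fat cells was listed, which says only that no call was made for them.

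Of the 18 small RNA features, 16 were higher in siH19 and 2 were lower. Across the list as a whole, 62.8% of features were higher. Differences of at least 1.5-fold were seen in 12 of the 18 (66.7%), against 54.4% of all features listed. These were 10 higher features, beside 37.4% of the list, and 2 lower features, beside 16.9%. Without the 6 features whose locus is covered to at least 30% by long genes on the other strand, a choice made after seeing the data, 4 of 12 were higher by at least 1.5-fold, and the median difference of the 12 was 0.485 against 0.45 for the list. The cover of the Cdk16 locus was not measured, and this feature was kept and counts among the 4. The median difference of the 18 was 0.655 (1.57-fold), and that of the list was 0.45 (1.37-fold). Among the 2531 features with a symbol that were not selected, the median was 0.41. Because 1 value per group was available, whether the 18 differ from the list was not tested. The list itself was shifted upwards by 0.45 at its median, and when that shift was subtracted 13 of the 18 were higher and 5 lower, with Rpph1, Rprl3 and the Mmgt1 feature changing sign. On that scale 5 were higher and 2 lower by at least 1.5-fold, beside 15.9% and 37.2% of the list. Because no listed difference is smaller than 0.31, every feature that was lower before the subtraction passes 1.5-fold after it. The counts of lower features on that scale were therefore fixed in advance.

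**Figure D1:**
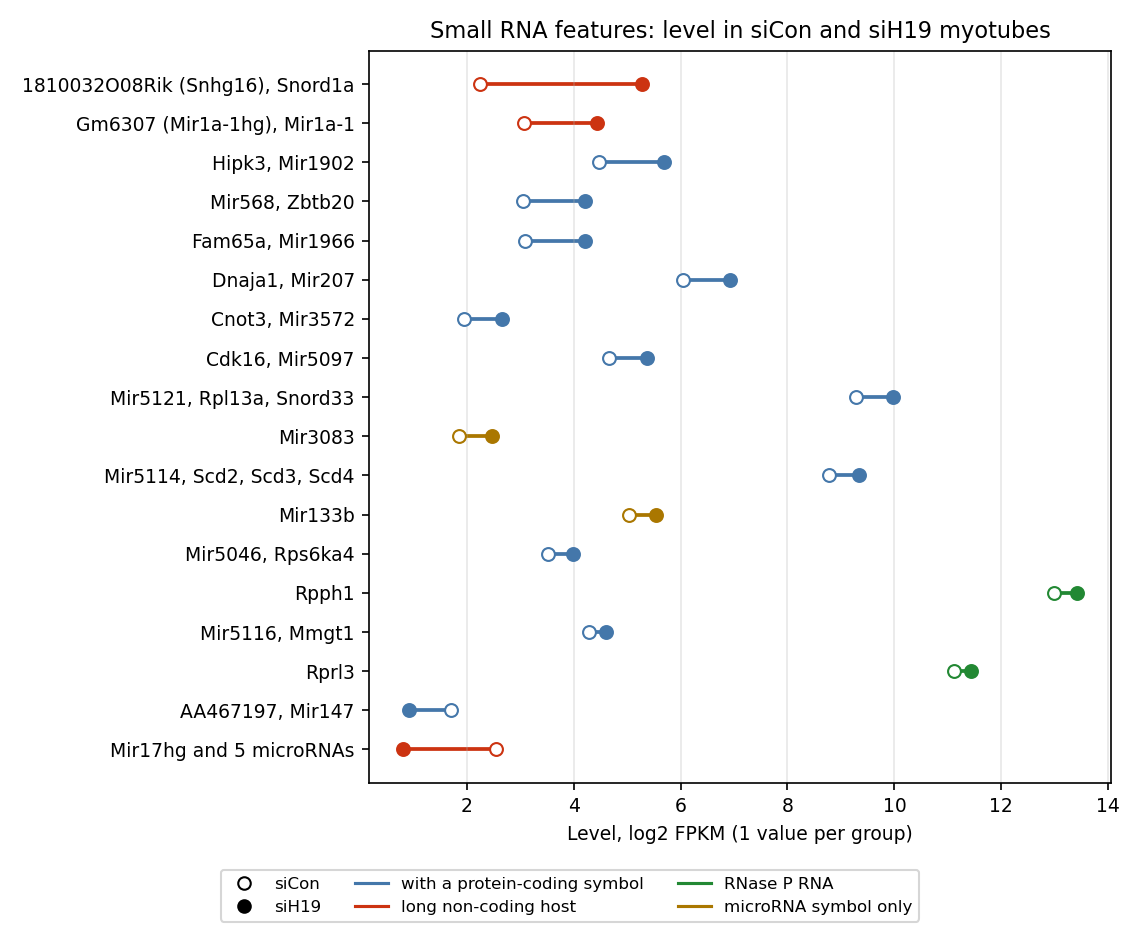
Level in log2 FPKM (x axis) of the 18 small RNA features in siCon (open points) and siH19 (filled points), 1 value per group, ordered by the difference and coloured by kind of feature. The siH19 point lies to the right for 16 features, of which Rpph1, Rprl3 and Mmgt1 change sign when centred on the median of the list, and to the left for the AA467197 and Mir17hg features.

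**Figure D2:**
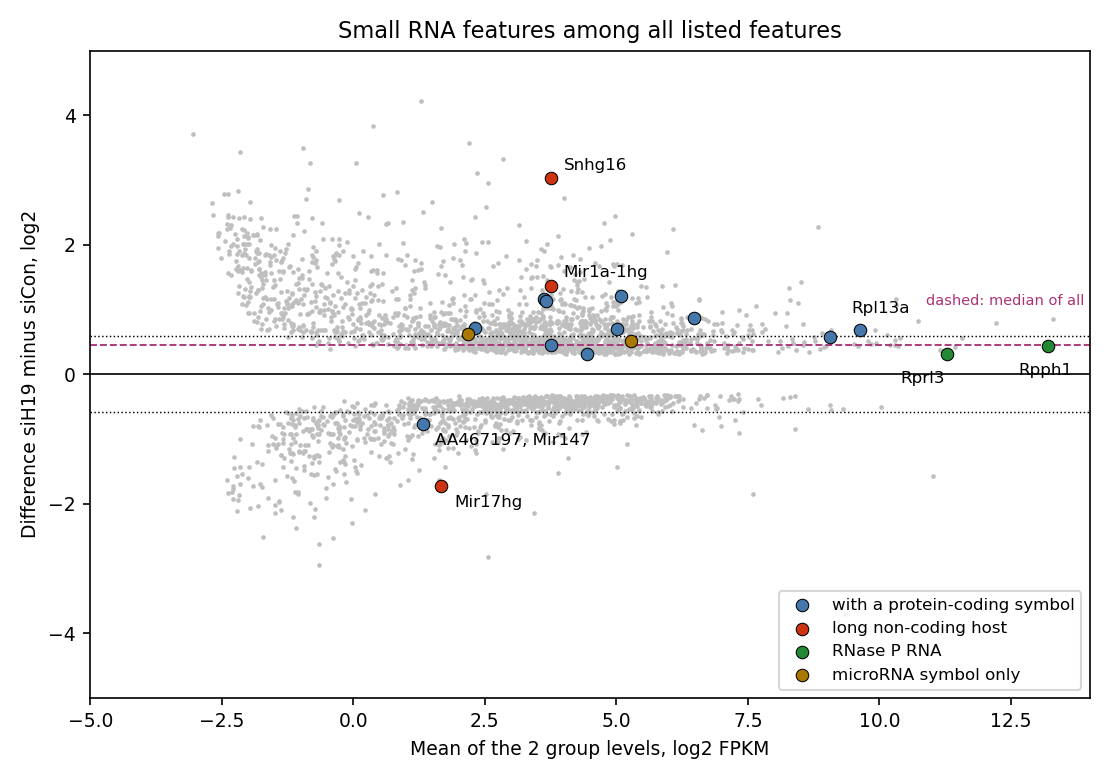
Difference siH19 minus siCon on the log2 scale (y axis) against the mean of the 2 group levels in log2 FPKM (x axis) for the 3019 features listed (grey; 4 lie beyond 5 log2 units and are not drawn), with the 18 small RNA features coloured. Dotted lines mark 1.5-fold and the dashed line the median of the list, 0.45. The empty band around 0 reflects that only called features were listed, and Rpph1, Rprl3 and Mmgt1 lie above 0 but below the dashed line.

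Long non-coding hosts held both ends of the range among the 18. Snhg16, listed as 1810032O08Rik with Snord1a, is a non-coding transcript whose introns contain the Snord1 snoRNAs. Its level was 2.24 log2 FPKM in siCon and 5.27 in siH19. The difference of 3.03 (8.17-fold higher) was the 13th largest increase in the list. Snord1a lay within an intron of 3 of the 7 annotated transcripts of the gene and within an exon of 1. Snord1b and Snord1c, which are not among the symbols of the feature, lay within introns of 4 and 5 of the 7. The listed locus (chr11:116671660-116694660) is 23001 bp long, but the Snhg16 gene takes up only its first 4140 bp, and 84.2% of the locus is covered on the opposite strand by St6galnac2, a sialyltransferase gene with no entry of its own in the list. The share of the increase that belongs to each of these genes was not tested.

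Mir17hg, the primary transcript of the miR-17-92 cluster, was the counterpart at the lower end. The authors' value was 2.54 log2 FPKM in siCon and 0.81 in siH19, a difference of -1.73 (3.32-fold lower). The feature carried the symbols Mir17, Mir18, Mir19a, Mir20a and Mir19b-1 beside the host, and the hairpin gene Mir92-1 lies in the same locus without being named. All 6 hairpins fell inside the exon of the 1 annotated Mir17hg transcript, beginning 792 to 1548 bases from its start, so reads over the hairpins and over the remainder of the transcript count towards the same level. The locus (chr14:115040987-115051114) covers no annotated gene on the other strand. At 0.81 log2 FPKM it was also the lowest siH19 level among the 18.

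Mir1a-1hg, listed as Gm6307 with Mir1a-1, is the primary transcript of the muscle microRNAs miR-1a-1 and miR-133a-2. It had 3.07 log2 FPKM in siCon and 4.44 in siH19, a difference of 1.37 (2.58-fold higher), the second largest increase of the 18. Its locus (chr2:180370451-180412341) also contains Mir133a-2, which is not among the symbols, and 36.8% of it is covered on the opposite strand by the lincRNA B230312C02Rik. Thus 2 of the 3 long non-coding hosts were higher and 1 was lower, beside 62.8% of the list higher, and all 3 differed by at least 1.5-fold, beside 54.4%.

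**Figure D3:**
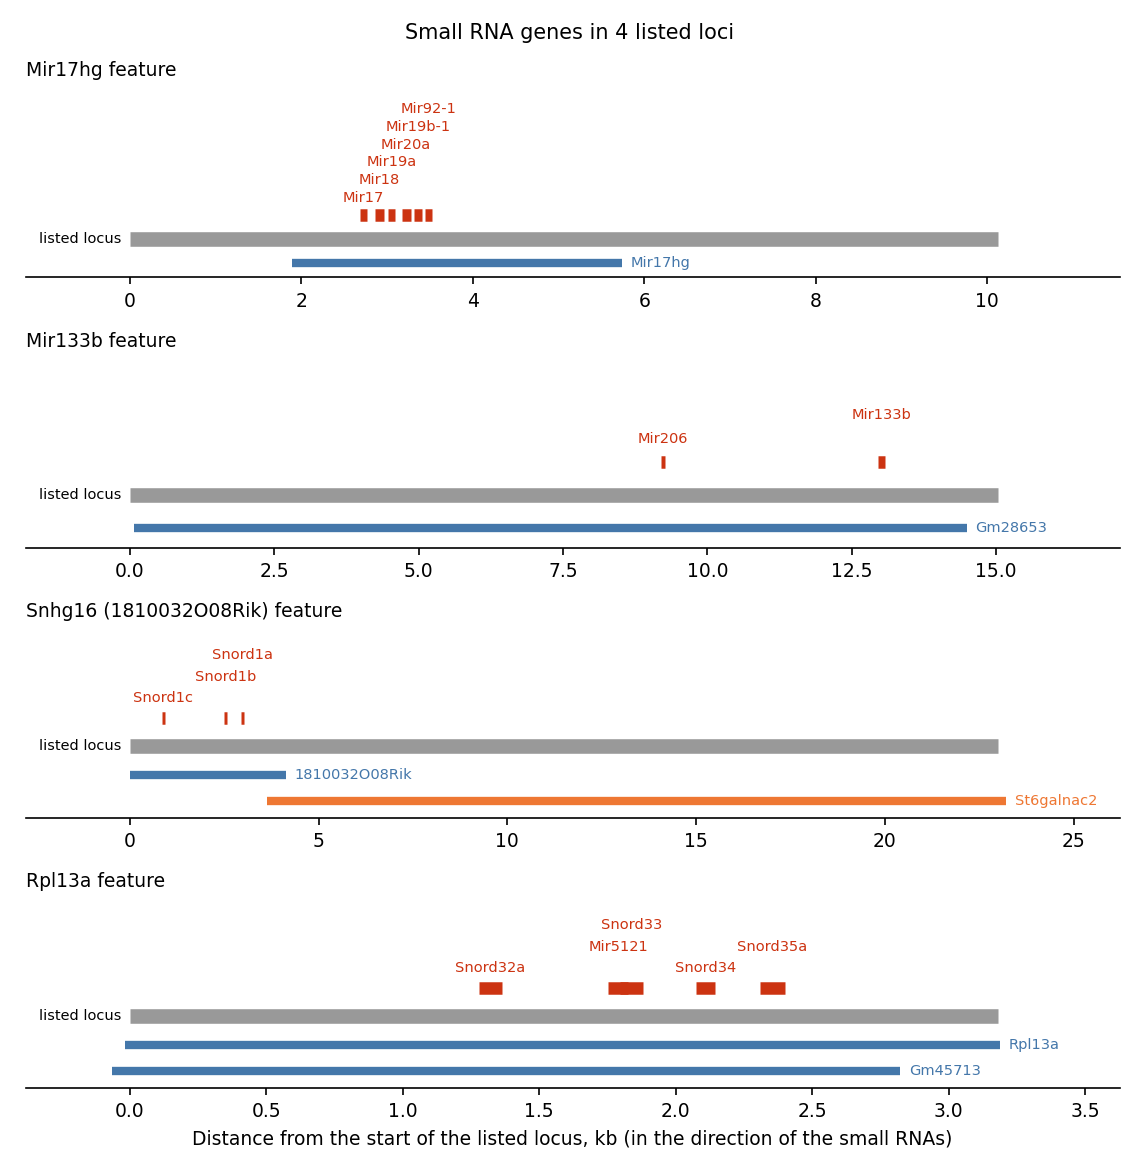
Maps to scale of 4 listed loci, with the distance from the start of the locus in kb (x axis of each map), the locus in grey, small RNA genes in red, and annotated long genes in blue (same strand as the small RNAs) or orange (opposite strand), which are cut just beyond the ends of the locus. The Mir17hg hairpins lie together in 1 gene, and St6galnac2 covers most of the 23001 bp Snhg16 locus on the opposite strand.

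The other muscle microRNA locus carried the symbol Mir133b and no other. Its level was 5.03 log2 FPKM in siCon and 5.54 in siH19, a difference of 0.51 (1.42-fold higher), below the 1.5-fold cut-off. In the GENCODE annotation the locus (chr1:20669807-20684845) matches the lincRNA Gm28653, and it also contains Mir206. The Mir133b hairpin lay inside an exon of both annotated transcripts, 12887 bases from the start of the gene. Mir206 began 9128 bases from the start and lay inside an intron of 1 transcript and across an exon border of the other. The differences of 1.37 and 0.51 for the Mir1a-1 and Mir133b features stood on either side of the 0.74 median of the 11 myotube marker features, all of which were higher. The part of the differentiation markers in these differences was not tested.

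Mir3083 was the second feature with a microRNA symbol alone. Its level was 1.86 log2 FPKM in siCon and 2.48 in siH19, a difference of 0.62 (1.54-fold higher), which was the smallest difference past the cut-off among the 18 and was 0.51, below it, with a pseudocount of 1 FPKM. Mir3083 is annotated as a hairpin of 64 bp, far shorter than the listed locus, so the level is that of the locus, and the share that belongs to a transcript of the microRNA was not tested.

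The RNase P RNAs had the highest levels of the 18 features in both groups. Rpph1, the RNA of the main RNase P gene (chr14:50807447-50807771), had 12.98 log2 FPKM in siCon, the highest siCon level in the list, and 13.42 in siH19. Its difference of 0.44 (1.36-fold) became -0.01 when the median shift of the list was subtracted. Rprl3, an RNase P RNA-like gene (chr8:3803125-3803361), had 11.12 log2 FPKM in siCon and 11.44 in siH19, and its difference of 0.32 became -0.13 in the same way. Neither passed 1.5-fold. In their GENCODE sequences the 2 RNAs were 88.2% identical over 279 aligned bases, with a longest common stretch of 37 bases. Whether reads were shared between the 2 genes was not tested. The Rpph1 gene also overlaps the annotated start of Ccnb1ip1 on the same strand. Both features are short, 325 and 237 bp, and an FPKM of so short a feature depends strongly on the correction for fragment length.

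The 11 features that carried a protein-coding symbol were 10 higher and 1 lower in siH19, beside 62.8% of the list higher, with a median difference of 0.70 against 0.45. At least 1.5-fold differences were found in 7 higher features and 1 lower, beside 37.4% and 16.9% of the list. Their symbols join a messenger RNA and a microRNA or snoRNA at the same locus, and their level cannot be split between the joined genes.

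Rpl13a, a protein of the large ribosomal subunit and a known host of snoRNAs, was the most abundant of the 11. It had 9.28 log2 FPKM in siCon and 9.97 in siH19, a difference of 0.69 (1.61-fold higher). Its introns contain Snord32a, Snord33, Snord34 and Snord35a, of which Snord33 alone is among the symbols. Snord34 and Snord35a were each intronic in 15 of 19 annotated transcripts, Snord32a in 14 and Snord33 in 13. Rpl13a has processed pseudogenes elsewhere in the genome, so how reads were divided among these copies is uncertain. Dnaja1, a co-chaperone of Hsp70 listed with Mir207, had 6.05 log2 FPKM in siCon and 6.92 in siH19, a difference of 0.87 (1.83-fold higher). Its locus extends over Smu1, a splicing factor gene on the opposite strand. Smu1 and the lincRNA Gm6297 together cover 62.5% of the locus on that strand.

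Hipk3, a nuclear serine/threonine kinase listed with Mir1902, had the largest difference of the protein-coding features. Its level was 4.48 log2 FPKM in siCon and 5.69 in siH19, and the difference was 1.21 (2.31-fold higher). Zbtb20, a zinc finger transcriptional repressor listed with Mir568, had 3.05 log2 FPKM in siCon and 4.21 in siH19, a difference of 1.16 (2.23-fold higher). Each of these microRNAs lies in an exon of 1 annotated transcript of its host, outside the coding sequence.

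Ripor1 (listed as Fam65a, with Mir1966) had 3.09 log2 FPKM in siCon and 4.22 in siH19, a difference of 1.13 (2.19-fold higher). Cnot3, a subunit of the CCR4-NOT deadenylase listed with Mir3572, had 1.95 log2 FPKM in siCon and 2.67 in siH19, a difference of 0.72 (1.65-fold higher). These are the hosts of the microRNAs shown above that end at an intron border. The Cnot3 locus extends over Leng1 and Tmc4, which cover 54.0% of it on the opposite strand, and the Ripor1 locus lies wholly within the annotated Agrp gene on the opposite strand. Cdk16, a cyclin-dependent kinase listed with Mir5097, had 4.67 log2 FPKM in siCon and 5.37 in siH19, a difference of 0.70 (1.62-fold higher).

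The remaining 4 protein-coding features were 3 that stayed below 1.5-fold and 1 that was lower. Scd2, a stearoyl-CoA desaturase of fatty acid synthesis, was listed in 1 feature with Scd3, Scd4 and Mir5114, at 8.77 log2 FPKM in siCon and 9.34 in siH19. Its difference of 0.57 (1.48-fold higher) was the nearest below the cut-off, and how reads were divided among these related genes is uncertain. Rps6ka4, a kinase downstream of MAP kinases listed with Mir5046, had 3.52 log2 FPKM in siCon and 3.98 in siH19, a difference of 0.46 (1.38-fold higher). Mmgt1, a subunit of the endoplasmic reticulum membrane complex listed with Mir5116, had 4.29 log2 FPKM in siCon and 4.61 in siH19, and its difference of 0.32 became -0.13 after the median shift was subtracted. AA467197, a small protein of the mitochondrial electron transport chain listed with Mir147, was the protein-coding feature that was lower in siH19. It had 1.70 log2 FPKM in siCon and 0.93 in siH19, a difference of -0.77 (1.71-fold lower), which was -0.55 and below the cut-off with a pseudocount of 1 FPKM. Mir147 lies in an exon of 3 of its 4 annotated transcripts, outside the coding sequence.

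The symbols of the list do not cover every small RNA gene. By position, the 18 loci held 31 annotated small RNA genes, of which 22 were among the symbols and 9 were not. Those 9 were Mir206, Mir92-1, Mir133a-2, Snord1b, Snord1c, Snord32a, Snord34, Snord35a and the snRNA gene Gm25873. A further 140 features that were not selected overlapped a small RNA gene of a matching name. Of these, 4 had no gene symbol, and all 4 were higher in siH19, beside 77.2% of the 470 features without a symbol. The feature over Rny1, a Y RNA bound by the Ro autoantigen, had 12.87 log2 FPKM in siCon and 13.73 in siH19 (difference 0.86, 97 bp). The feature over Rny3, the neighbouring Y RNA gene, had 6.84 and 7.83 (difference 0.99, 511 bp). The feature over Rnu3a, the U3 snoRNA that acts in early rRNA processing, had 5.21 and 5.73 (difference 0.52, 989 bp). The 2 Y RNA features thus lay above both RNase P RNAs in their difference, and the Rny1 feature is shorter than either of them. The last of the 4, over Mir5118, had a very low level (-3.13 and -1.23 log2 FPKM).

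Features with a gene symbol that contain a snoRNA gene of a matching name without carrying it in their symbols were 4 higher and 2 lower, close to the 62.8% of the list that was higher. Rpsa, a ribosomal protein of the small subunit whose locus contains Snora62, had 8.16 log2 FPKM in siCon and 8.93 in siH19, a difference of 0.77. Rc3h2, an RNA-binding ubiquitin ligase whose locus contains Snord90, had 3.99 and 4.81, a difference of 0.82. The translation genes Tpt1 (Snora31) and Eif4g1 (Snord66) had smaller differences of 0.37 and 0.33, both of which fall below 0 after the median shift is subtracted. Tmem107 (Snord118) and 1810009A15Rik (Snora57) were lower, by differences of -0.49 and -0.47. Whether these snoRNA genes lie in introns of the listed transcripts was not examined.

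**Figure D4:**
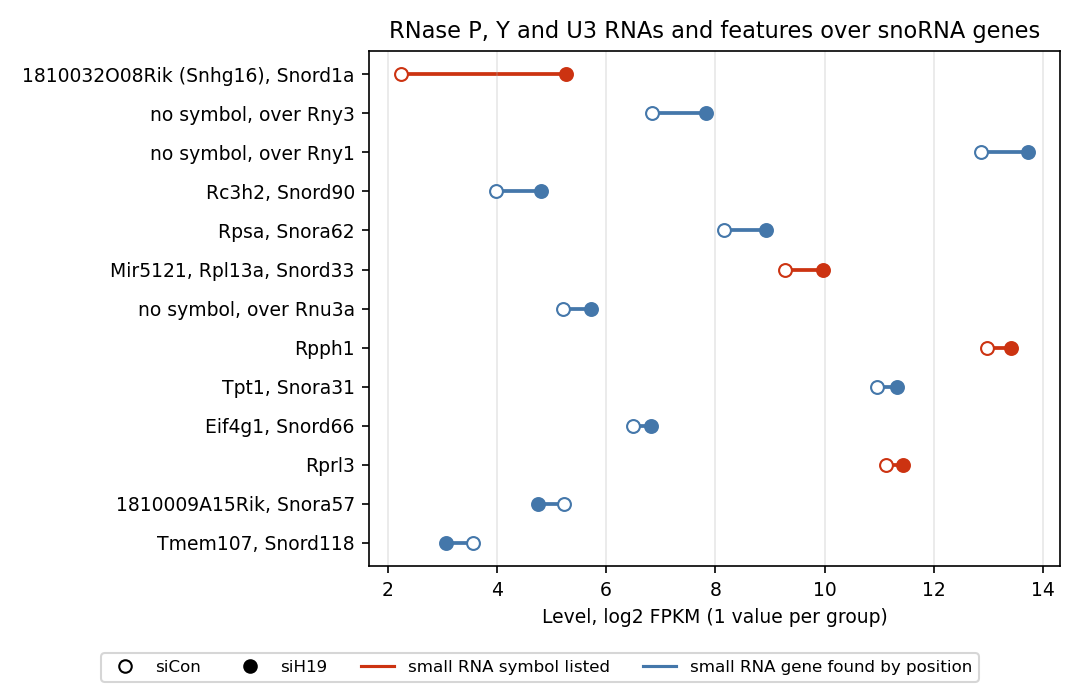
Level in log2 FPKM (x axis) in siCon (open points) and siH19 (filled points), 1 value per group, of the RNase P, Y and U3 RNA features and of features over snoRNA genes. Red features carry a small RNA symbol and blue features were found by position. Of the 13, 11 are higher in siH19, beside 62.8% of the list, and Tmem107 and 1810009A15Rik are lower. Among the 11, Rpph1, Rprl3, Tpt1 and Eif4g1 change sign when centred on the median of the list.

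Proteins that make or bind small RNAs were counted from lists of gene symbols, and a gene that is not listed was not called. Of 26 genes of microRNA processing and effector function, 4 were listed, 3 higher and 1 lower, and 2 of the higher passed 1.5-fold. These counts, and those of the lists that follow, are small and stand beside 62.8% of the list higher and 37.4% higher by at least 1.5-fold. Tnrc6a, a scaffold of the silencing complex, had 2.43 log2 FPKM in siCon and 3.20 in siH19, a difference of 0.77 (1.71-fold higher). Zswim8, the adaptor of a ubiquitin ligase that degrades Argonaute during target-directed microRNA decay, had 3.68 and 4.34, a difference of 0.66 (1.58-fold higher). Tnrc6c differed by 0.44, which is -0.01 after the median shift, and Tarbp2, the partner of Dicer, by -0.39. Drosha, Dgcr8, Xpo5, Dicer1 and the 4 Argonaute genes were not listed.

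Of 21 snoRNP proteins and assembly factors, 3 were listed, 2 higher and 1 lower, with none past 1.5-fold. Naf1 and Tgs1, which act in H/ACA assembly and in cap hypermethylation, both differed by 0.56, and the assembly ATPase Ruvbl1 by -0.45. Of 28 proteins of other small RNPs, 5 were listed, 3 higher and 2 lower. Among these was Trove2, the Ro protein that binds Y RNAs, with 4.09 log2 FPKM in siCon and 3.75 in siH19, a difference of -0.34, opposite in sign to the features over Rny1 and Rny3. No protein subunit of RNase P on the list used was listed. Srp19, a protein of the signal recognition particle, had the largest difference of the 5, at 5.75 and 4.67 log2 FPKM (-1.08). Of 10 genes of nonsense-mediated decay, a pathway that degrades spliced non-coding snoRNA hosts, 3 were listed. Smg1 differed by 0.37, which is negative after the median shift, and Upf3a by -0.40, and none of the 3 passed 1.5-fold.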

How the data were processed

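RNA-seq libraries of siCon- and siH19-transfected C3H myotubes were mapped by the authors to mm10 with TopHat (TopHat2 2.0.7 and TopHat 1.0.0 are in their processing notes) and compared with Cuffdiff 2.1.1. The annotation is not given in the sources used here. The authors deposited log2 FPKM values, 1 for each group over its 3 libraries, rounded to 2 decimals with a floor of -10. The authors' columns of fold change, q value, status and significance were not used. From the 2 group columns the difference, its fold and counts at 1.5-fold were computed with Python 3.11.15, numpy 2.4.6 and pandas 2.3.3 (figures, matplotlib 3.10.9), and tested on simulated data. Loci were joined by position to GENCODE M21 and RefSeq GRCm38.p6, both of the mm10 assembly, and sequences were aligned with biopython 1.88. Starts in the table were taken as counted from 0. Every feature found by the symbol rule is named, with H19 as the check of the labels. The features and gene lists were chosen with earlier results of these data known. Genes outside the rule and lists were named after their values were seen. Without values per library, no depth, test or error could be computed. Alternatives were another fold cut-off, a level filter, a pseudocount, centring and other member rules. Some results at or near the loci examined are not reported here.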

Additional observations from a re-analysis of the deposited data

How the results depend on the processing

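The counts were 16 higher, 2 lower, 10 higher and 2 lower by at least 1.5-fold, with a median difference of 0.655. They did not change when both levels had to reach 0 log2 FPKM. The lowest level among the 18 was 0.81, so this filter removed none of them and could not change the counts. Under it the shares of the list past 1.5-fold were 31.3% higher and 11.3% lower. Without features that carry a protein-coding symbol the counts were 6, 1, 3 and 1 with a median of 0.510, and with features in which every symbol matched the rule 4, 1, 1 and 1 with a median of 0.440. Centred on the median of all listed features they were 13, 5, 5 and 2 with a median of 0.205, beside 49.2% of the list higher, and Rpph1 (-0.01), Rprl3 (-0.13) and Mmgt1 (-0.13) reversed. With a pseudocount of 1 FPKM 9 higher and 1 lower passed 1.5-fold, beside 22.3% and 6.72% of the list, and the median was 0.585 against 0.36 for the list. No direction changed, and Mir3083 and AA467197 fell below the cut-off. At the lower fold cut-off tried 14 higher and 2 lower passed, beside 62.3% and 36.8% of the list, and at 2-fold 5 and 1, beside 16.9% and 6.09% of the list. Some further settings were chosen after seeing the data. Adding the 4 features without a symbol gave 20, 2, 13 and 2 with a median of 0.695. Leaving out the 6 loci covered to at least 30% by genes on the other strand, Snhg16 among them, gave 10, 2, 4 and 2 with a median of 0.485, beside 37.4% of the list higher and 16.9% lower by at least 1.5-fold. The Cdk16 locus, whose cover was not measured, was kept.

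No paired analysis was possible because the deposited columns hold 1 value per group. No replicate was left out for the same reason. Only called features were listed, so the centring uses called features and not all expressed genes. Levels of microRNA features are those of the locus and not of the mature RNA. Levels of snoRNA features are also those of the locus, and the share of the mature snoRNA in them was not tested.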
